A study of Mus musculus with 2 samples.

Results

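The transcription factors that drive keratinocytes through terminal differentiation were examined in mouse skin wounds with and without epidermal beta-catenin. The list held 9 genes, namely Trp63, Grhl1, Grhl3, Ovol1, Dlx3, Gata3, Cebpa, Cebpb and Cebpd. Probes were chosen by gene symbol, which found 7 of the 9 genes with 1 probe each. Grhl1 was found through its RefSeq transcript under the older symbol Tcfcp2l2, with 2 probes, and Cebpd was not analysed here. The set was therefore 9 probes of 8 genes, among 25697 probes of 17877 genes.

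The knockout mice carried both floxed alleles of beta-catenin (b-catenin fl/fl) and a Cre recombinase under the K14 promoter. That promoter is active in keratinocytes that express keratin 14. Which cells of the wound had lost the gene was not measured here. The controls were b-catenin fl/fl littermates without Cre. Both groups were C57BL6, were fed a diet low in calcium and were 3 months old when each mouse was given 2 full-thickness punch wounds of 6 mm on the back. The wounds were cut out 3 days later with an 8-mm punch, and total RNA of 3 mice was pooled per group and hybridised to 1 Illumina bead array per group. With 1 array per group there is no replicate error, so no difference below has a test, a standard error or a p-value.

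The epidermis is renewed from a basal layer whose cells divide, leave the basement membrane and mature through spinous and granular layers into the cornified barrier. p63, the product of Trp63, holds the basal programme and also opens the way to stratification, and the Grainyhead-like, Ovo-like, Distal-less, GATA and C/EBP factors act on later steps such as cell-cycle exit, desmosome assembly, barrier lipids and cornified envelope crosslinking. Beta-catenin is the adhesion partner of E-cadherin and the co-activator of TCF/LEF factors in the Wnt pathway. The same wound also holds dermis, fat, muscle and infiltrating leukocytes, several of which use Gata3, Cebpa and Cebpb themselves.

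Promoter windows from RefSeq (mouse build GRCm38.p6, 250 bases before to 50 bases after the start site, 5' to 3' on the strand of the gene) were matched by symbol for Grhl1, Grhl3, Gata3, Cebpa and Cebpb, with 6 windows in all. The windows of Gata3, Grhl3 and Cebpa are shown because Gata3 had the largest difference between the arrays among the genes with a window, and Grhl3 and Cebpa, which stood on the other side of 0, are examples of windows that hold common promoter letters. Gata3 lies at chr2:9878551-9878850 on the minus strand, Grhl3 at chr4:135573583-135573882 on the minus strand and Cebpa at chr7:35119043-35119342 on the plus strand. Capitals mark TATAAA and CCAAT, read on both strands, and ATTGG is CCAAT on the opposite strand.
Gata3: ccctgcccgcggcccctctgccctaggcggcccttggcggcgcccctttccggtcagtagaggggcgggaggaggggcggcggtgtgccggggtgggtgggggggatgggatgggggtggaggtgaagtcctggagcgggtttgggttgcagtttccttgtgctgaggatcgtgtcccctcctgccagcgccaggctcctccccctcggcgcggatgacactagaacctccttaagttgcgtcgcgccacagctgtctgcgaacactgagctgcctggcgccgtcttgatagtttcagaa
Grhl3: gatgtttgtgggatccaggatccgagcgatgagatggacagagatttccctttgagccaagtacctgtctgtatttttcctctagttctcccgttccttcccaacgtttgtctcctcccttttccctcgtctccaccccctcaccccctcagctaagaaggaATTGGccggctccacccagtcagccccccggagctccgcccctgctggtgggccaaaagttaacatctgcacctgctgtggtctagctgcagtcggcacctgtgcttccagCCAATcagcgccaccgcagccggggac
Cebpa: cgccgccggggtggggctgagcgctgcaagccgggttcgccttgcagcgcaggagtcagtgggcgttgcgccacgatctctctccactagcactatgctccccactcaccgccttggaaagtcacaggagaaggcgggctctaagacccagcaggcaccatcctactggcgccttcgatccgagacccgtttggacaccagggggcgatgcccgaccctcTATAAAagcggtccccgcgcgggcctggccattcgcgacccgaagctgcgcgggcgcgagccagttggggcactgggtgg
Neither TATAAA nor CCAAT was found in the Gata3 window. The Grhl3 window held CCAAT on the opposite strand at positions -88 to -84 from the start site and on the strand of the gene at positions 24 to 28. The Cebpa window held TATAAA at positions -30 to -25. Of the windows not shown, the first of Grhl1 held CCAAT at positions -123 to -119 and -59 to -55. The Cebpb window held TATAAA at positions 22 to 27, and the second Grhl1 window held neither. Since Grhl1 had log2 folds below 0, these letters occurred in genes on both sides of 0. Over the 32851 windows of the table, 13.6% held TATAAA and 37.4% held CCAAT, and these letters were added after the sequences had been seen. A TCF/LEF motif (ATCAAAG, in 3.73% of windows), a C/EBP motif (TTGCNNAA, 10.8%), a Grainyhead-like motif (AACCGGTT, 0.146%) and a GATA motif (AGATAA, 11.2%), each read on both strands, were found in none of the 6 windows. Their GC content ran from 51.3% for the second window of Grhl1 to 80.7% for Cebpb, and that of Gata3 and Cebpa was 67.3% each.

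All 9 probes were detected on both arrays, meaning that fewer than 1% of the negative control beads were as bright, a raw intensity of at least 177.9 on the knockout array and of at least 181.8 on the control array. Detection held for 12412 probes of the knockout array and 12481 of the control array, and 12956 probes were detected on at least 1 of them. The deposited detection p-values are listed in another order than the intensities, and as listed only the Dlx3 probe would have passed. Intensities were background-corrected and quantile-normalized, and the log2 fold is the log2 normalized intensity of the knockout array minus that of the control array. The 2 probes for Ctnnb1, the deleted gene, had log2 folds of 0.01 and -0.17, and since it is unknown whether they lie in the deleted exons, they do not check the genotype. The labelled tissue was borne out by keratinocyte markers, since all 8 basal keratinocyte markers were detected on at least 1 array.

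No probe of the set differed by 1.5-fold between the arrays. Among all detected probes 4.64% were at least 1.5-fold lower and 3.92% at least 1.5-fold higher on the knockout array, and 0.617% were at least 2-fold lower and the same share, 0.617%, at least 2-fold higher. Folds of dim probes scatter more, and among probes with a mean normalized intensity of 200 or more, which 8 of the 9 probes reached, the shares were 2.19% lower and 1.58% higher. A count of 0 in 9 probes is near these backgrounds. Of the 9 log2 folds, 4 were below 0 and 5 above it, with a median of 0.0019 against 0.0097 for all detected probes. Trp63 and Gata3 stood apart from the other 7 probes, which lay within 0.25 of 0 on the log2 scale.

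**Figure D1:**
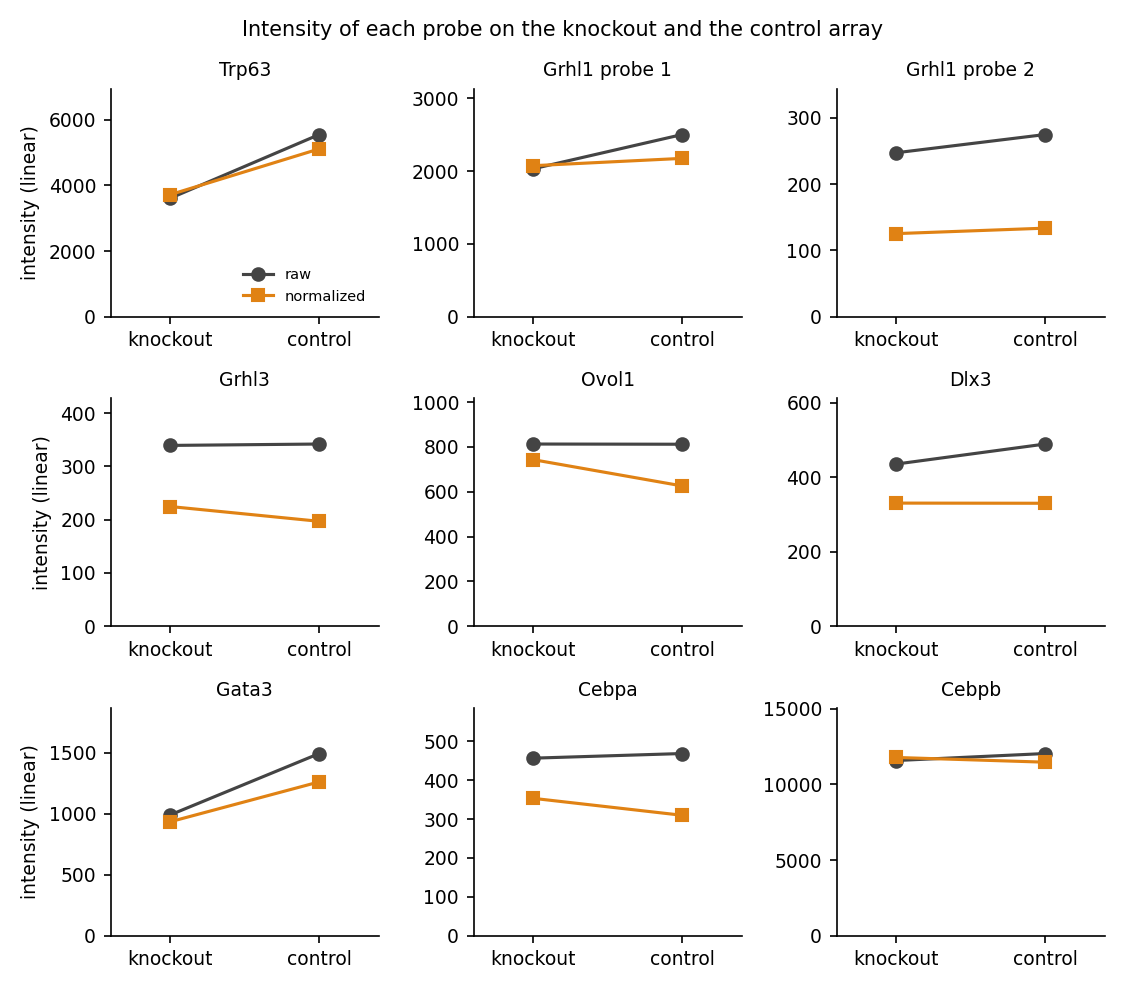
Intensity (linear scale from 0) of each of the 9 probes on the knockout array (left) and the control array (right), as raw intensity (dark circles) and as normalized intensity (orange squares); each point is 1 array of RNA pooled from 3 mice. Trp63 and Gata3 are dimmer on the knockout array on both scales, while the other 7 probes lie within 0.25 of 0 in log2 fold of normalized intensity.

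p63 is the p53-family factor without which no stratified epidermis forms. Its probe had a raw intensity of 3609 on the knockout array and 5549.9 on the control array, and a normalized intensity of 3718 and 5112. It was lower on the knockout array, with a log2 fold of -0.46, which is 1.37-fold and short of the 1.5-fold rule. Both readings were far above background, at 20.3 times the detection limit on the knockout array and 30.5 times on the control array. Of all detected probes, 8.24% had a log2 fold as low or lower, and of the 3398 with a mean normalized intensity of 1000 or more, where folds scatter least, 3.12% did. Trp63 was measured by 1 probe whose place on the transcripts is not given here, so its isoforms were not told apart.

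GATA3 is a zinc-finger factor of barrier lipid synthesis and of the inner root sheath of the hair follicle, and it is also a master regulator of T helper and innate lymphoid cells. Raw Gata3 intensity was 992 on the knockout array and 1495.5 on the control array, and normalized intensity was 936 and 1263. The log2 fold was -0.43, or 1.35-fold lower on the knockout array, a difference 0.03 smaller than that of Trp63. As low or lower were 9.43% of all detected probes and 4.12% of those with a mean normalized intensity of 1000 or more. Both genes thus lay below the 5th percentile of such bright probes, at -0.39, and inside the middle 90% of all detected probes, from -0.57 to 0.53. Their place among all detected probes depended on the processing. In the authors' deposited normalized intensities, 2.38% were as low or lower for Trp63 and 3.16% for Gata3. These shares were 2.18% and 2.74% in raw intensities, and 2.05% and 3.28% without background correction. They were 4.69% and 6.2% with an offset of 50, and 9.23% and 8.2% under median scaling. Each rests on a single probe. As a guide to how far probes of 1 gene differ, the log2 folds of the brightest pair of probes differed by a median of 0.15 over 1242 genes with at least 2 such probes of intensity 200 or more, and by at least the size of the Gata3 log2 fold in 6.36% of them.

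**Figure D2:**
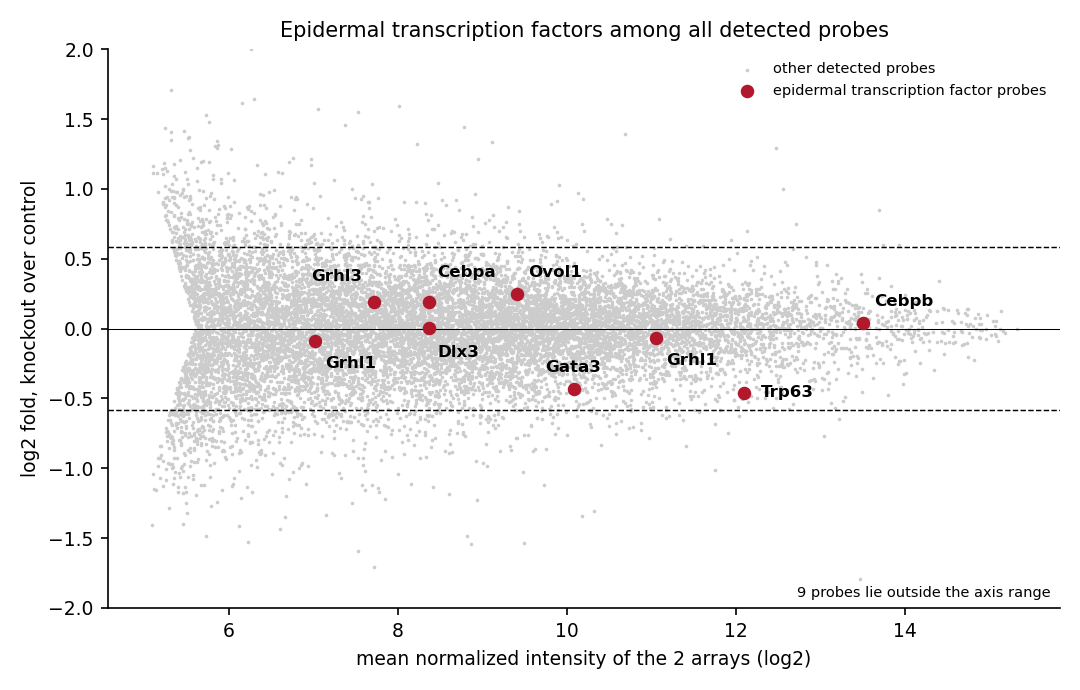
Log2 fold (knockout over control) against the mean normalized intensity of both arrays (log2) for all 12956 detected probes, with the 9 probes of the epidermal transcription factors in red and dashed lines at 1.5-fold; 9 probes lie outside the plotted range. All red points fall between the dashed lines, with Gata3 at -0.43 and Trp63 at -0.46 near the lower edge of the cloud at their brightness.

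GRHL1 and GRHL3 are Grainyhead-like factors, of which GRHL1 acts on desmosomal cadherins and hair anchorage and GRHL3 on barrier formation and wound closure. The brighter Grhl1 probe had a normalized intensity of 2075 on the knockout array and 2176 on the control array, and the dimmer one had 125.3 and 133.5. The 2 probes had the same sign and nearly the same size, with log2 folds of -0.07 and -0.09. Grhl3 had a normalized intensity of 225 on the knockout array and 197 on the control array, a log2 fold of 0.19. Its raw readings were 339 and 342, less than 2 times the detection limit on both arrays, so its fold is among the least certain of the set. The raw readings of Grhl3 were nearly equal, with a log2 ratio of -0.01, and the difference appears with the normalization.

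OVOL1 is a zinc-finger factor that takes late progenitors out of the cell cycle, and DLX3 is a homeobox factor of terminal differentiation and of the hair follicle. Ovol1 had the highest log2 fold of the set, 0.25, or 1.19-fold, from normalized intensities of 743 on the knockout array and 626 on the control array. Its raw readings were 813 and 812, and 19.7% of all detected probes had a log2 fold as high or higher. Dlx3 had a normalized intensity of 331 on the knockout array and 330.2 on the control array, a log2 fold of 0.0019. The levels of Dlx3 were thus equal after quantile normalization, while its raw readings were 436 and 489.

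C/EBP alpha and C/EBP beta take part in the exit of basal keratinocytes from the cell cycle, and both are also used by adipocytes and myeloid cells. Cebpb had a normalized intensity of 11779.6 on the knockout array and 11468 on the control array, a log2 fold of 0.04. It was 65.1 times the detection limit on the knockout array and 66.2 times on the control array, the farthest above the limit of the 9 probes. Cebpa had a normalized intensity of 353 on the knockout array and 309.7 on the control array, a log2 fold of 0.19, and its raw readings were 457 and 468.5. Neither differed by more than the quartiles of all detected probes, which were -0.19 and 0.19.

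Both low readings, Trp63 and Gata3, were also low without normalization and in every normalization tried, but their side of the 1.5-fold line changed. In raw intensities, Trp63 was 1.54-fold and Gata3 1.51-fold lower on the knockout array, both past 1.5-fold, as were 2.84% of all detected probes. The raw intensities were shifted towards the control array, with a median log2 ratio of -0.13 over the detected probes. This shift was not uniform, as the median was -0.17 for probes with raw intensity of 1000 or more on both arrays. Relative to the median of all detected probes, Trp63 was at -0.49 and Gata3 at -0.46 in raw intensities, against -0.47 and -0.44 in normalized ones. In the authors' deposited normalized intensities the log2 folds were -0.43 for Trp63 and -0.40 for Gata3, and no probe of the set passed 1.5-fold, against 0.687% of detected probes lower by that much. Median scaling instead of the quantile step gave -0.54 for Trp63 and -0.56 for Gata3. Grhl1 stayed below 0 and Ovol1 above 0 in these settings, while the signs of the other 4 genes depended on the scaling. Dlx3 stood at -0.13 under median scaling and -0.17 in raw intensities, and Grhl3 (-0.01), Cebpa (-0.04) and Cebpb (-0.06) fell below 0 in raw intensities only.

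**Figure D3:**
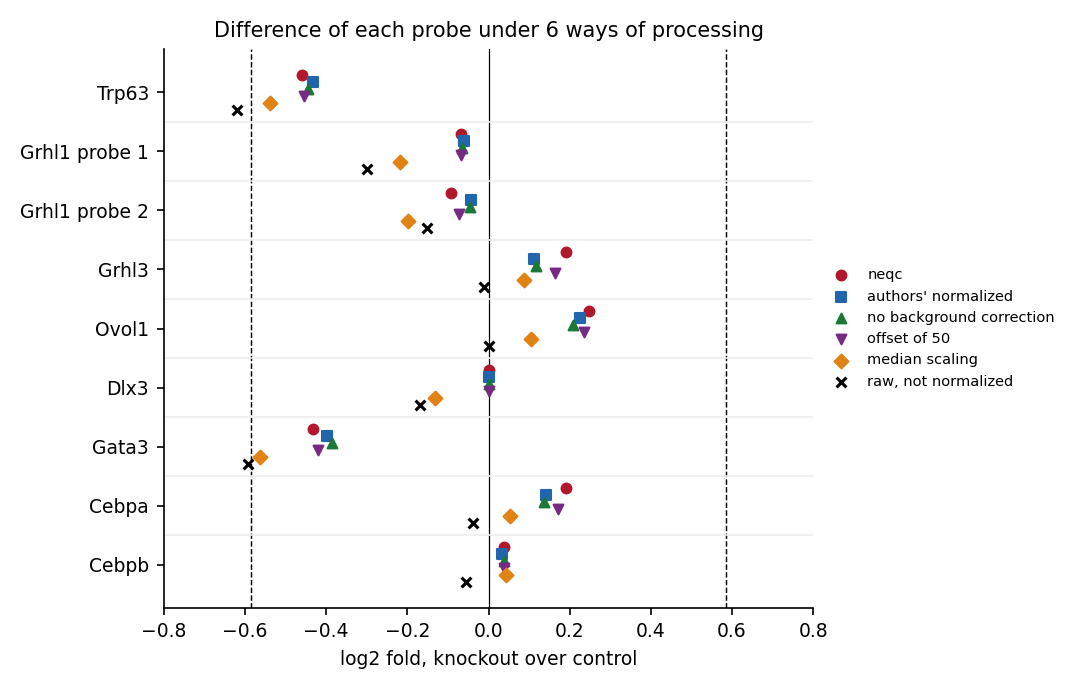
Log2 fold (knockout over control) of each of the 9 probes under 6 ways of processing, with dashed lines at 1.5-fold in either direction; each symbol is 1 comparison of the knockout array with the control array. Trp63 and Gata3 lie between -0.62 and -0.39 under all 6, and only their raw values cross the dashed line, while the symbols of the other probes stay between -0.30 and 0.25.

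Relatives of the set in the same protein families were either not detected or within 1.5-fold. Of 16 relatives with a probe, 8 were detected. Under median scaling, which put the median of all detected probes at -0.10, 2 of the 8 relatives were at least 1.5-fold lower. In the main normalization the log2 folds of the 8 relatives were split into 4 below and 4 above 0, with a median of -0.0063. Among all 9708 detected genes, each taken as its brightest probe, 4.47% were at least 1.5-fold lower and 3.5% at least 1.5-fold higher. Their median log2 fold was 0.0038, and 48.6% of all detected probes had a log2 fold below 0. These shares are the background for the counts of the lists below. Gata6, a GATA factor of the sebaceous duct and upper hair follicle, had a normalized intensity of 355 on the knockout array and 526 on the control array, a log2 fold of -0.57. Grhl2, the Grainyhead-like factor of epithelial junctions, had 259 on the knockout array and 356 on the control array, a log2 fold of -0.46. Ovol2, which holds epithelial identity, had the highest value of the relatives, 0.29, at 101 against 82.1.

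Among 28 other transcription factors of the epidermis, 18 were detected, and 1 of these was past 1.5-fold. The median log2 fold was 0.02, with 7 genes below and 11 above 0, and it was -0.10 under median scaling and -0.18 in raw intensities. Id2, an inhibitor of basic helix-loop-helix factors, was lower at 104 on the knockout array and 166 on the control array, a log2 fold of -0.68, which shrank to -0.32 in the authors' normalized intensities. Elf3, an ETS factor of epithelial differentiation, had a log2 fold of 0.45, or 0.18 in the authors' normalized intensities, and Klf4, a barrier factor, had -0.37. The 3 detected probes of Klf4 did not share a sign, at -0.37 for the brightest and -0.47 and 0.14 for the others.

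Genes that p63 is known to act on did not stand lower as a group beside the lower Trp63 reading. Of 20 such genes 18 were detected, with 9 below and 9 above 0 and a median log2 fold of 0.03, which was -0.07 under median scaling and -0.14 in raw intensities. The list was not split by whether p63 raises or lowers a gene, so its median does not measure p63 activity, which was not tested. Itga6, the alpha-6 integrin of hemidesmosomes, was detected on the control array only. Its normalized intensities were 46.4 on the knockout array and 108 on the control array, with a bound of 2.19-fold lower that holds for this normalization only. Its raw readings were 175.3 and 247.6, against detection limits of 177.9 and 181.8, and its log2 fold in the authors' normalized intensities was -0.39. Dst, a hemidesmosomal plakin, had a log2 fold of 0.50, or 0.24 in the authors' normalized intensities. Perp, a desmosomal protein, was detected on the control array only, with normalized intensities of 41.6 and 52.8 and a bound of 1.07-fold. Krt5 and Krt14, the basal keratins, which were chosen after their values had been seen, had log2 folds of 0.14 and 0.05.

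No detected target of the Grainyhead-like factors was past 1.5-fold. Of 10 detected genes of 11 on the array, 3 were below and 7 above 0, with a median log2 fold of 0.17, which lies inside the quartiles of all detected probes and was 0.05 under median scaling and -0.04 in raw intensities. Arhgef19, a guanine nucleotide exchange factor downstream of GRHL3, had 202 on the knockout array and 147 on the control array. Its log2 fold was 0.45, or 0.26 in the authors' normalized intensities. Vangl2, a planar polarity protein, had 0.30, and Ovol1, itself on this list, had 0.25. Ppl, the desmosomal plakin periplakin, named after its value had been seen, had 3567 on the knockout array and 4228 on the control array, a log2 fold of -0.24. Tgm1, the transglutaminase of the cornified envelope and a known GRHL3 target, which was chosen after its value had been seen, had 1208 on the knockout array and 1074 on the control array, a log2 fold of 0.17.

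Among targets of the C/EBP factors, 10 of 13 were detected and 1 passed the rule as higher, against 3.5% of all detected genes. Lcn2, the iron-binding lipocalin of neutrophils and wounded epithelium, was 2-fold higher, at 8536 on the knockout array and 4268 on the control array. The median was 0.06, with 3 genes below and 7 above 0, and it was -0.08 in raw intensities. Krt1, the first keratin of the spinous layer, had a log2 fold of 0.48, at 9318 on the knockout array and 6699 on the control array, and Adipoq, an adipocyte hormone, had -0.26.

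Spinous and granular layer genes, the products of the programme these factors drive, had 17 of 18 members detected, of which 3 were at least 1.5-fold higher and none lower by that much. The median log2 fold of the list was 0.17, with 6 genes below and 11 above 0, and it was -0.07 in raw intensities. Lce1f, a late cornified envelope protein, was higher at 2855 on the knockout array and 1654 on the control array, a log2 fold of 0.79. Tgm3, a transglutaminase, had 96.2 on the knockout array and 55.3 on the control array, a log2 fold of 0.80, and Lce1g had 0.59. Tgm3 and Lce1g are dim probes, and their log2 folds were 0.26 each in the authors' normalized intensities, which left 1 gene of the list past 1.5-fold higher. Flg2, a filaggrin-family protein, and Dsc1, a desmosomal cadherin, both named after their values had been seen, stood lower at nearly the same size as Lce1g. Flg2 had 1889 on the knockout array and 2794 on the control array, a log2 fold of -0.56. Dsc1, also a dim probe, had 149.6 on the knockout array and 221 on the control array, a log2 fold of -0.57. In the authors' normalized intensities the log2 folds were -0.51 for Flg2 and -0.32 for Dsc1. Under median scaling, which put the median of all detected probes at -0.10, 2 genes of the list were at least 1.5-fold lower.

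**Figure D4:**
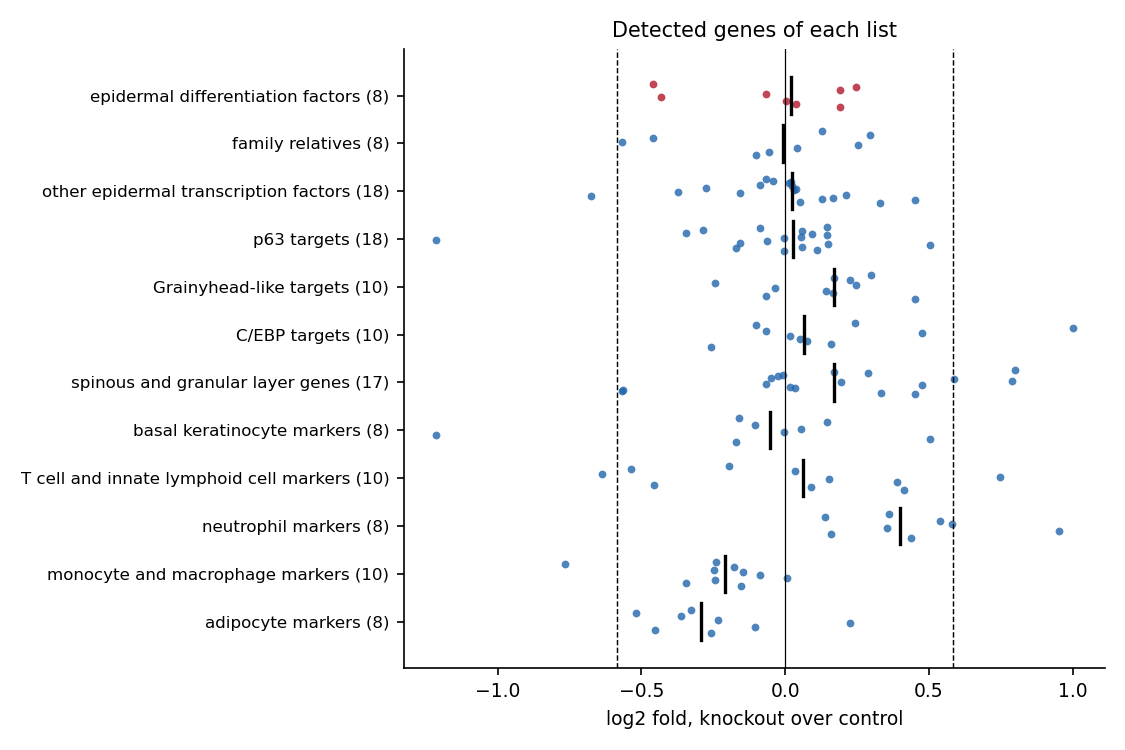
Log2 fold (knockout over control) of each detected gene, taken as its brightest probe, by list, with the number of detected genes in brackets, a black bar at the list's median and dashed lines at 1.5-fold. The epidermal differentiation factors lie between -0.46 and 0.25 around a median of 0.02, neutrophil markers all lie above 0, and adipocyte and monocyte and macrophage markers lie mostly below it.

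In whole wounds a lower reading can come from fewer cells of a type or from less RNA per cell, which cannot be told apart here. Basal keratinocyte markers, which bear on Trp63, had 8 of 8 genes detected, with 5 below and 3 above 0 and a median log2 fold of -0.05. Their summed normalized intensity was 75620 on the knockout array and 75558 on the control array, and 1 of the 8, Itga6, was past 1.5-fold. Krt14 alone gave 35193 of the sum on the knockout array and 33897 on the control array. The part of basal cell numbers in the Trp63 reading was not tested. For cells other than keratinocytes that express Gata3, the T cell and innate lymphoid cell markers had 10 of 14 genes detected, 4 below and 6 above 0, with a median of 0.06 that was -0.04 under median scaling and -0.08 in raw intensities. Their sums were 10219 on the knockout array and 10870.5 on the control array, and Cd4, Cd8a, Cd247 and Il2rb were not detected. Thy1, which is also on the fibroblast list, gave 6059 of the sum on the knockout array and 6936 on the control array. Without Thy1 the sum was not lower on the knockout array, where Il1rl1 gave 1902 against 1134 on the control array. Rora gave 968 on the knockout array and 1405 on the control array, so the direction of the sum depended on single genes. Il7r, the interleukin-7 receptor, was lower (log2 fold -0.64, and -0.36 in the authors' normalized intensities), Il1rl1, the interleukin-33 receptor, was higher (0.75), and Rora, a nuclear receptor of innate lymphoid cells, had -0.54. The part of these cells in the Gata3 reading was not tested.

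Markers of cell types that express Cebpa and Cebpb stood in both directions on arrays where Cebpa and Cebpb were within 1.5-fold. Neutrophil markers had 8 of 11 genes detected, all above 0, with a median log2 fold of 0.40 (0.18 in raw intensities) and sums of 51988 on the knockout array and 43467 on the control array. Most of these sums came from S100a8, at 28693 on the knockout array and 26085 on the control array, and S100a9, at 14991 and 11679. Which cells of the wound gave these S100a8 and S100a9 readings was not tested, and Elane, Mpo and Ngp were not detected. In raw intensities Csf3r was lower on the knockout array, at 454.5 against 472.5, while the other detected neutrophil markers stayed higher. Cxcr2, the neutrophil chemokine receptor, was higher (0.95, and 0.56 in the authors' normalized intensities), and Mmp9 and Retnlg had 0.58 and 0.54. Monocyte and macrophage markers had 10 of 10 genes detected, 9 below 0, with a median of -0.21 and sums of 60535 on the knockout array and 71610 on the control array. Mrc1, the mannose receptor of resident macrophages, was lower (-0.77), C1qa had -0.35 and Itgam had -0.25. Adipocyte markers had 8 of 10 genes detected, 7 below 0, with a median of -0.29, sums of 38881 on the knockout array and 46028 on the control array, and Lpl at -0.52, Car3 at -0.45 and Lipe at -0.36. The part of these cells in the Cebpa and Cebpb readings was not tested.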

How the data were processed

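Total RNA of wounded mouse skin was measured on Illumina bead arrays, 1 per group, with the group given by the labelled genotype. The first deposited table holds raw probe intensity on a linear scale, per the file headers, for 25697 probes (medians 173.5 on the knockout array and 177.3 on the control array). The second holds the authors' normalized intensity, the method of which the sources used here do not give. Per the submitters' processing notes, the software was GenomeStudio 2011.1. Both tables list a detection p-value that the authors deposited per probe, in an order unrelated to intensity (rank correlation over all probes -0.000406 on the knockout array and 0.002438 on the control array), so sorted p-values were given to sorted intensities within each array.

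Raw intensities were processed in R 4.3.3 with limma 3.58.1 (neqc, normexp background from the detection p-values, offset of 16, quantile normalization, log2), and the rest was computed in Python 3.11.15 with pandas 2.3.3. Quantile normalization hides a shift of all genes, and the offset shrinks folds of dim probes. A gene was taken as its brightest probe, and a gene detected on 1 array was given a bound against the lowest detected value of the other. Current symbols came from RefSeq genes (GRCm38.p6), matched by accession for 23876 probes. The steps were tested on simulated data.

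A gene was called at 1.5-fold or 2-fold if detected on at least 1 array, with no test, and the number of arrays limits the precision. Named genes were all probes of the 9 factors and of Ctnnb1, and of each of the 13 other lists the 3 detected genes with the largest absolute log2 fold and up to 6 past 1.5-fold. The lists were family relatives, other epidermal transcription factors, targets of p63, of Grainyhead-like factors and of C/EBP factors, spinous and granular layer genes, and markers of basal keratinocytes, T and innate lymphoid cells, neutrophils, monocytes and macrophages, adipocytes, fibroblasts and skeletal muscle. The genes and lists were chosen with earlier results of these data known. Alternatives were the authors' normalized intensities, no background correction, an offset of 50, median scaling, detection at 5%, no detection filter, p-values as listed, the mean of a gene's probes and, added after seeing the data, raw intensities.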

Additional observations from a re-analysis of the deposited data

How the results depend on the processing

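With 1 array per group no replicate could be left out, and no paired analysis was possible because each group has 1 array. No probe of the 9 factors passed 1.5-fold under 6 other settings, nor did Dlx3, the 1 probe left with p-values as listed. Of these settings, detection at 5% and no detection filter leave the folds of these probes unchanged, so they could not alter this result. The larger offset shrinks folds, so it could not bring a probe past 1.5-fold either. Only raw intensities, added after seeing the data, called 2 probes of the set lower, Trp63 and Gata3. A list median counted as moved beyond 0.19 on the log2 scale and a count beyond 1.5 times. No list value moved under detection at 5%, no detection filter or the mean of a gene's probes.

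With the authors' intensities and without background correction, the genes lower fell to 0 (from 1) for T and innate lymphoid cells, basal keratinocytes, other epidermal factors and p63 targets, those higher to 0 for fibroblasts and neutrophils, and spinous and granular genes higher to 1. An offset of 50 gave 0 lower for T and innate lymphoid cells and other epidermal factors, 0 higher for fibroblasts and 1 higher for spinous and granular genes. The p-values as listed are unrelated to intensity and leave fewer genes, an arbitrary part of each list. The values they gave therefore do not measure a dependence on processing. With them, T and innate lymphoid cells had 0 higher and a median of -0.25, and basal keratinocytes and p63 targets 0 lower. Neutrophils had 0 higher, fibroblasts a median of 0.27, muscle 0 higher and a median of -0.0115, and spinous and granular genes 1 higher. Median scaling gave 3 lower for T and innate lymphoid cells and 2 lower each for family relatives and spinous and granular genes. The median of all detected probes was -0.10 in that setting. Raw intensities gave 0 higher for T and innate lymphoid cells, fibroblasts, neutrophils and spinous and granular genes, 0 lower for basal keratinocytes, other epidermal factors and p63 targets, 1 lower for relatives, fibroblasts and spinous and granular genes, and 2 lower for adipocytes, with medians of -0.0422 (Grainyhead-like targets), 0.18 (neutrophils), -0.18 (other epidermal factors) and -0.0651 (spinous and granular genes). The cause of these moves was not tested. Signal over background limits Grhl3 and the dimmer Grhl1 probe, both under 2 times the detection limit.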

Other observations

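Fibroblast and skeletal muscle markers were not level in the same way. Fibroblast markers had 8 of 8 genes detected, with 4 below and 4 above 0, a median log2 fold of -0.03 and sums of 47586 on the knockout array and 52430.5 on the control array. Fap, a protease of activated fibroblasts, was higher (0.70, and 0.29 in the authors' normalized intensities) at 134 on the knockout array and 82.6 on the control array, while Lum, a collagen-binding proteoglycan, had -0.53 and Pdgfra, the platelet-derived growth factor receptor of fibroblasts, had -0.33.

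Skeletal muscle markers had 12 of 12 genes detected, 5 of them at least 1.5-fold higher and none lower by that much, with a median of 0.27. The muscle markers that were higher were Myl2 (5.40), Myl3 (5.26), Tnnc1 (2.77) and Tnnt1 (2.17), contractile proteins of slow fibres, and Myh4 (0.67), a myosin of fast fibres. In the authors' normalized intensities the log2 folds were smaller, at 4.29 for Myl2, 3.55 for Myl3, 2.55 for Tnnc1, 2.03 for Tnnt1 and 0.38 for Myh4, which was then short of 1.5-fold. The raw Myl3 reading on the control array, 185.4, was close to the detection limit of 181.8. Acta1, the muscle actin, which was chosen after its value had been seen, had -0.01. The part of fibroblasts and of muscle in the readings of the epidermal factors was not tested.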
